A study of Mus musculus with 30 samples.

Results

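Tnnc1, Flnc and Myh7 are genes best known from striated muscle, and they were followed here in the primary visual cortex (V1) of mice. Every probe set whose array annotation gave one of these symbols alone was taken, which gave 5 of the 36899 probe sets on the 3 arrays (1 for Tnnc1, 2 for Flnc and 2 for Myh7), or 3 of 15964 named genes. The mice were reared under standard conditions, and V1 was dissected from litters at postnatal day 14 (P14, 3 litters), day 28 (P28, 3 litters) and day 60 (P60, 4 litters). All groups were normally reared animals without a named treatment or mutation, and strain, sex and the number of animals in a litter sample are not given in the sources used here. RNA of each litter was hybridised to 3 Affymetrix array types, MG-U74Av2, MG-U74Bv2 and MG-U74Cv2, named chips A, B and C below.

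Muscle contracts when calcium binds troponin C, the calcium sensor of the thin filament, and so frees actin for myosin. Tnnc1 encodes the troponin C of heart and slow skeletal muscle, a small protein with EF-hand calcium sites related to calmodulin. Myh7 encodes the beta myosin heavy chain, the motor of the same muscles, and Flnc encodes filamin C, a large actin crosslinker of the Z-disc, the structure that anchors thin filaments. Cortex holds no striated muscle. Its vessels carry smooth muscle and pericytes, and its neurons and glia have their own nonmuscle actin, myosin, filamin and EF-hand proteins.

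The genes were picked with their age patterns in these arrays known, so their levels are given as descriptions, without tests. A level is the deposited MAS5 signal, a linear intensity that summarises the probes of a probe set. The background was the 95th percentile of 15 probe sets for Bacillus transcripts, which mouse RNA does not contain. Chip A had a pooled level of 98.4 over its 10 arrays, chip B of 153 and chip C of 252. On single chip A arrays it lay between 43.0 and 68.6 at P14 and P28 and between 101 and 111 at P60. A log2 difference is that of log2(signal + a constant), the constant being the 20th percentile of the chip type (38.6 for chip A and 44.0 for chip C), with the standard error (SE) of limma. These differences understate changes of dim probe sets.

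The arrays were not equally good. On P14 litter 1 the ratio of 3' to 5' Gapdh signal was 9.57 to 12.2, against 0.741 to 1.32 on the other 27 arrays. On chips A and B, P60 litters 1 and 4 had the highest median signals (251 and 243 on chip A). Cortical identity was clear. All 13 measured excitatory neuron markers, among them Slc17a7 and Camk2a, had means above the Bacillus level at every age. Their summed signal was 41954 to 68617 at P14, 44797 to 49028 at P28 and 42745 to 51521 at P60. The 68617 was that of P14 litter 1. Single litters could lie below the level of their own array, as Camk2a did in P14 litter 1 (30.8) and P60 litters 2 and 3 (83.7 and 65.6).

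Tnnc1 was the member with the clearest signal, so the DNA before its start is shown. The gene lies on chromosome 14 (GRCm38.p6, 31208312 to 31211729, plus strand). The stretch below is the 250 bases upstream of its RefSeq start, chr14:31208062-31208311 on the plus strand, written 5′ to 3′. Capitals mark the GATA letters bound by GATA factors and the MCAT element CATTCC bound by TEAD factors, which reads GGAATG on this strand. Both kinds of factor are known regulators of heart muscle genes.

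Tnnc1 upstream: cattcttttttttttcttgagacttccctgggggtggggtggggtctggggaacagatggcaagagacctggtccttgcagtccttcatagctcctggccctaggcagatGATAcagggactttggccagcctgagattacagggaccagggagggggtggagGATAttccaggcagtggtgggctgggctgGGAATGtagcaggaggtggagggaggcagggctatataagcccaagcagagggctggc

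GATA stood at -140 and -87 and the MCAT letters at -58, counted in bases from the start to the 5′ end of the match on the printed strand. On either strand, 54.1% of 27025 mouse promoter windows of this length held GATA and 12.6% held CATTCC. The E-box CANNTG, found in 66.05% of windows, was present as well, at -197 and -145. TATAAA (12.98% of windows), the CArG box bound by serum response factor (1.41%) and the MEF2 site (3.03%) had no match in this window. For TATAAA just these exact letters were searched, and the similar letters TATATAA stand near the 3′ end of the window. The same window of Myh7, on the minus strand of chromosome 14 (gene at 54970684 to 54994626), held the E-box, the GATA letters and the MCAT element. The window of Flnc on chromosome 6 (gene at 29433153 to 29461889) held none of the 6 motifs. A match is a description of letters, and nothing in these arrays measures binding.

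Tnnc1 was lowest at P14, highest at P28 and intermediate at P60. Its chip A probe set had signals of 259, 102 and 354 in P14 litters 1, 2 and 3. It had 761, 624 and 842 in the P28 litters and 568, 307, 220 and 320.5 in P60 litters 1 to 4. Every P28 litter lay above every litter of both other ages, with the narrowest gap between P28 litter 2 and P60 litter 1, whereas the P14 and P60 litters overlapped. P14 litter 1, with its high 3' to 5' ratio, gave a value between those of the other P14 litters.

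The Tnnc1 means were 238 ± 127 (SD, n = 3) at P14, 742 ± 110 (SD, n = 3) at P28 and 354 ± 149 (SD, n = 4) at P60. P28 was thus 3.11 times P14, and P60 was 0.477 times P28. The log2 difference was 1.61 (SE 0.382) for P28 against P14, -1.05 (SE 0.358) for P60 against P28 and 0.55 (SE 0.358) for P60 against P14. In order of level P28 came first, then P60, then P14, and the last 2 did not differ beyond their spread between litters. The small P60 excess over P14 rested on single litters, since it was 0.13 without P14 litter 2, 0.32 without P60 litter 1 and 0.87 without P14 litter 3.

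Tnnc1 exceeded the Bacillus level of its own array in all 10 litters. It was 9.14 to 17.5 times that level at P28, 1.49 to 8.22 times at P14 and 2.06 to 5.12 times at P60. P14 litter 2, at 102, came closest to background, near the pooled level of 98.4. The Bacillus level itself was higher on the P60 arrays than on the P14 and P28 arrays of chip A, and its part in the P60 values was not tested.

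**Figure D1:**
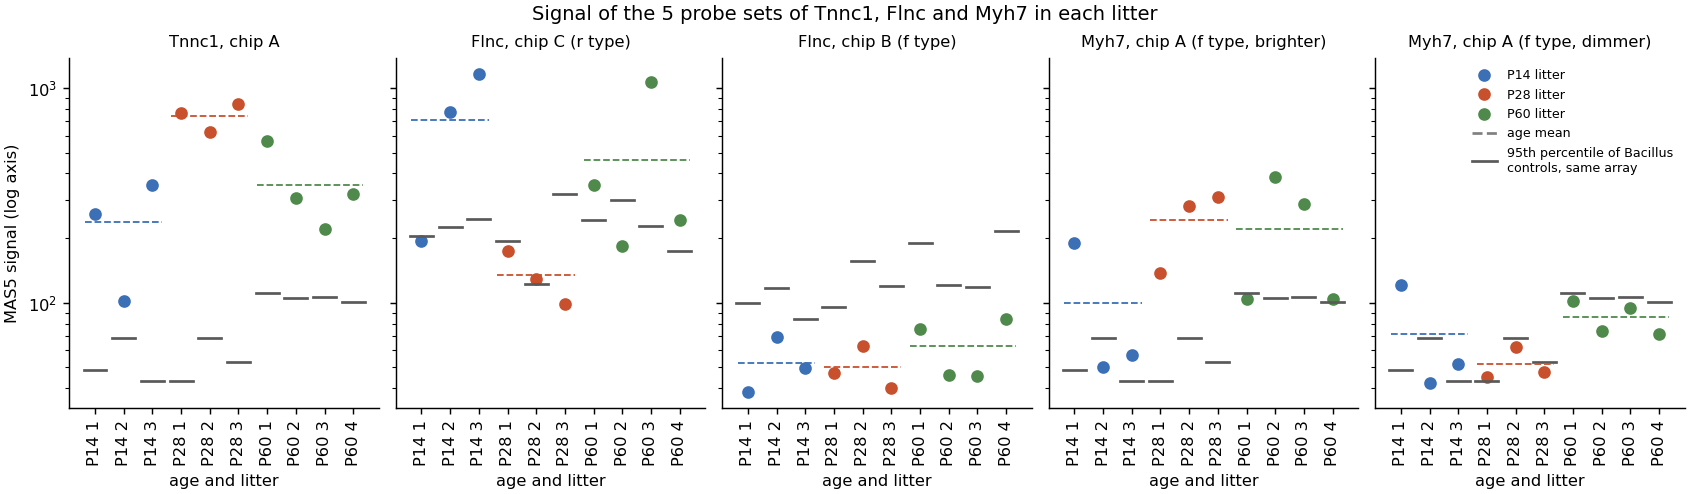
MAS5 signal (log axis) of the 5 probe sets in each litter, with dashed lines for age means and grey bars for the 95th percentile of the Bacillus controls on the same array. Tnnc1 lies above the grey bar in all 10 litters and is highest at P28 (624 to 842), Flnc on chip C is at most 1.05 times the bar at P28, and Flnc on chip B lies below it in every litter.

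Flnc ran the other way on its brighter probe set. This probe set, on chip C, carries the suffix r, meaning that some of the rules for choosing probes were dropped. Its signals were 194, 771.5 and 1163 in P14 litters 1, 2 and 3, then 174, 129 and 99.1 in the P28 litters, and 355, 183, 1064 and 244 in P60 litters 1 to 4. P28 was below every litter of the other ages, but P14 litter 1 (194) and P60 litter 2 (183) came close to P28 litter 1 (174). High values were scattered, with P14 litters 2 and 3 and P60 litter 3 far above the other 7 litters.

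The Flnc means on chip C were 709.5 ± 487 (SD, n = 3) at P14, 134 ± 37.8 (SD, n = 3) at P28 and 461 ± 408 (SD, n = 4) at P60. The log2 difference was -1.81 (SE 0.628) for P28 against P14, 1.23 (SE 0.588) for P60 against P28 and -0.58 (SE 0.588) for P60 against P14. The P28 mean lay below the pooled Bacillus level of 252, and just 1 P28 litter exceeded the level of its own array, by 1.05 times, so the size of a difference with P28 depends on the added constant. At P14, 2 of 3 litters exceeded it and at P60, 3 of 4. Without P60 litter 3, P60 against P28 was 0.76, and without P14 litter 3, P60 against P14 was -0.10.

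The other Flnc probe set did not show this pattern. It lies on chip B and has the suffix f, given to probe sets that match a family of similar sequences. Its signal was 38.4 to 69.5 at P14, 40.1 to 63.0 at P28 and 45.3 to 83.8 at P60, in each litter below the Bacillus level of the same array (0.336 to 0.596 times it). The log2 difference for P28 against P14 was -0.03 (SE 0.22, limma on all probe sets that are not controls). Over the 10 litters the pair of Flnc probe sets correlated with r = 0.13. The files give no call of whether a probe set was detected, so the chip C pattern has no second measurement of Flnc behind it.

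Myh7 had 2 probe sets on chip A, both of the f type. The brighter had signals of 190, 50.2 and 57.0 in P14 litters 1, 2 and 3, of 138, 282 and 312 in the P28 litters, and of 104, 386.5, 289 and 104 in P60 litters 1 to 4. P28 and P14 overlapped through P14 litter 1, the litter with the high 3' to 5' ratio, and P60 split into litters 2 and 3 near the P28 values and litters 1 and 4 near background. Litters 1 and 4 are also the P60 litters with high median signals on this chip, and the part of that in the split was not tested.

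The means of this Myh7 probe set were 99.2 ± 79.1 (SD, n = 3) at P14, 244 ± 93.1 (SD, n = 3) at P28 and 221 ± 141 (SD, n = 4) at P60. The log2 difference was 1.12 (SE 0.523) for P28 against P14, -0.23 (SE 0.489) for P60 against P28 and 0.89 (SE 0.489) for P60 against P14. Without P14 litter 1 the first was 1.55. In the restricted set of arrays, which also leaves out P60 litters 1 and 4, P60 against P14 was 2.02 and P60 against P28 turned to 0.46. All 3 P28 litters exceeded the Bacillus level of their array, by 3.18 to 5.89 times, as did 2 of 3 litters at P14 and 3 of 4 at P60.

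The dimmer Myh7 probe set gave no matching pattern. Its signals were 120, 42.1 and 51.9 in P14 litters 1 to 3, 44.8 to 62.4 at P28 and 71.6 to 102 at P60, and the mean of each age was below 98.4. Just 3 of 10 litters exceeded the Bacillus level of their array. Its P60 litters all lay above its P28 litters, and all 4 were below the Bacillus level of their own arrays. The correlation of the Myh7 probe sets over the 10 litters was 0.28. Since f-type probe sets can match related transcripts and the myosin heavy chains of muscle are very similar, the Myh7 signal cannot be assigned to Myh7 alone.

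Of the 5 probe sets, 3 were bright enough to enter the fit of 20724 probe sets (above the chip median on at least 3 arrays). These were Tnnc1, Flnc on chip C and the brighter Myh7 probe set. Of all tested probe sets, 9.45% were higher and 8.41% lower at P28 than at P14 without overlap between litters, as Tnnc1 and Flnc were. Between P28 and P60 the shares were 4.46% lower at P60, as for Tnnc1, and 3.9% higher, as for Flnc. Tnnc1 was among 154 (0.743%) with all P28 litters above all others, and Flnc among 136 (0.656%) with all P28 litters below. Between P14 and P60, where all 5 probe sets overlapped, 6.61% were higher and 6.42% lower at P60 without overlap. By limma with Benjamini-Hochberg adjustment, 0.00483% of probe sets passed for P28 against P14, 0% for P60 against P28 and 0.396% for P60 against P14. The members were chosen on these ages, so nothing is read from these shares.

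The members did not share a pattern. Over the 10 litters log2 signals of Tnnc1 and Flnc on chip C had r = -0.64, Tnnc1 and the brighter Myh7 probe set r = 0.34, and Flnc and Myh7 r = -0.55. Without P14 litter 1 these were -0.70, 0.37 and -0.55. These values describe litters that were also used to choose the genes.

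Tnnc1 is described without a test here, and of the other troponin genes none passed limma in an age comparison. The genes of the other muscle troponin C, Tnnc2, of slow troponin I, Tnni1, and of slow troponin T, Tnnt1, had means above the Bacillus level at every age on the probe set tested. Tnnc2, the fast muscle form, had signals of 284, 210 and 252 at P14, 260, 253 and 192 at P28, and 442, 288, 213 and 432 at P60, so that P60 litters 1 and 4 were highest. Its other probe set, also on chip A, was far below the Bacillus level, with means of 13.5, 11.85 and 37.0. Tnni1, which encodes the inhibitory subunit, had means of 390, 419 and 404 at P14, P28 and P60. Its 2 other probe sets, on chip C, went from 520 to 214 and from 108 to 239 between P28 and P60, with opposite signs, and both are f-type.

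Tnnt1, which encodes the tropomyosin-binding subunit, had means of 224, 200 and 245. Its other probe set was not tested and had means of 70.1, 156 and 74.3, highest at P28 as for Tnnc1. The partners of Tnnc1 in heart lay below or near background. Cardiac troponin I, Tnni3, had means of 19.1, 56.2 and 31.1, below the Bacillus level of 98.4, and cardiac troponin T, Tnnt2, had 76.7, 107 and 139. The fast genes Tnni2 and Tnnt3 were at 9.03 and 41.0 at P14. Tnnt3 reached 280 and 252 in P60 litters 1 and 4 and stayed at or below 52.3 in the other 8. For the 3 troponin genes that were tested, the log2 difference for P28 against P14 lay between -0.20 and 0.11 (limma, adjusted p from 0.918 to 0.975).

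In the list of thin filament genes (troponins, tropomyosins, muscle actins and filament caps), 22 of 25 were on the arrays and 14 were tested. None passed in any age comparison, and 4 of 14 were higher at P28 than at P14 with a median log2 difference of -0.13. Over all 11240 genes tested the median was 0.04. Acta1, skeletal muscle actin, had the largest difference among members of the list above background. Its signals were 273, 389 and 354 at P14, 652, 439 and 522 at P28, and 477, 399, 319 and 378 at P60. P28 was higher than P14 without overlap, at 0.61 (SE 0.231, limma adjusted p = 0.534), and P60 and P28 overlapped. The caps of filament ends Tmod3 and Tmod2 stood at -0.60 (adjusted p = 0.619) and -0.39 (0.824). Their other tested probe sets stood at -0.33 for Tmod3 and at -0.73 and -1.25 for Tmod2.

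Of the myosin and thick filament list, 29 of 32 genes were measured and 17 tested, none of which passed. At P28 against P14, 7 of 17 were higher with a median of -0.03. Myh14, a nonmuscle myosin heavy chain gene, stood at 0.61 (limma adjusted p = 0.664), and Myh9, another, at 0.25 (0.835). Another tested probe set had the opposite sign for each, -0.25 for Myh14 and -0.08 for Myh9. Myl4, an embryonic and atrial light chain gene, stood at 0.29 (0.763), with means of 534, 657 and 613. Its other chip A probe set had means of 205, 602 and 407.5, a log2 difference of 1.40 for P28 against P14. Of the heavy chain genes most like Myh7, Myh6, the alpha chain of heart, had means of 10.8, 21.6 and 51.5. Myh7b stood at 27.5 to 79.1 in the P14 litters and at 397 and 461 in P60 litters 1 and 4, against 30.0 and 57.8 in P60 litters 2 and 3.

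Among filamins and partners of the Z-disc, 36 of 40 genes were measured and 18 tested, and none passed. Here 10 of 18 were higher at P28 than at P14, with a median of 0.06. Csrp1, a LIM-domain protein gene of smooth muscle, had a mean signal of 1044 ± 128 (SD, n = 3) in P14 litters and 1813 ± 146 (SD, n = 3) in P28 litters, a log2 difference of 0.78 (limma adjusted p = 0.397). Its other tested probe sets stood at 1.07 and 0.40. Fhl1, a LIM-domain protein gene of muscle, had means of 1822 ± 332 (SD, n = 3) at P14, 1027 ± 88.6 (SD, n = 3) at P28 and 871 ± 146 (SD, n = 4) at P60. The log2 difference for P60 against P14 was -1.03 (SE 0.196, limma adjusted p = 0.0504), and this passed in 6 of the other fits, at limma adjusted p from 0.00215 to 0.048. Another Fhl1 probe set stood at 0.03 for the same comparison. Synpo2, a Z-disc protein gene, stood at 0.62 for P28 against P14 (0.602), and its other tested probe set at -0.01. The nonmuscle filamin gene Flna was at background, with means of 23.6, 19.5 and 47.6.

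EF-hand calcium sensors, the wider family of troponin C, were well expressed. Of 27 measured genes 25 were tested, none passed, and 14 were higher at P28 than at P14, with a median of 0.06. From P28 to P60 7 of 25 were higher, with a median of -0.24, against 47.4% of all genes with a median of -0.02. Cabp1, a neuronal calmodulin relative, stood at 1.24 for P28 against P14 (limma adjusted p = 0.599), from 308, 1565 and 1971 to 2096, 2428 and 2909. Ncs1, neuronal calcium sensor 1, stood at 1.02 (0.598), with 0.27 on its other probe set, and Kcnip3, a potassium channel partner, at 0.78 (0.397). At P60 against P28 these 3 stood at -0.25, -0.19 and -0.12. For Cabp1 P14 litter 1 had the lowest value, as for Kcnip3 (1764, beside 3089 and 2964 in P14 litters 2 and 3), and for Tnnc1 it did not.

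The list of muscle calcium release and uptake had 20 of 21 genes measured and 12 tested, with none past the test and a median of -0.03 for P28 against P14. Atp2a2, the calcium pump of heart and brain, stood at -0.56 (limma adjusted p = 0.678). Its signals were 5350, 2877 and 2920 in P14 litters 1 to 3 and 2493, 2065 and 2678 in the P28 litters, so P14 litter 1 was highest. Jph3, the junctophilin of neurons, stood at 0.54 (0.598) and -0.11 on its other probe set. Asph stood at 0.50 (0.751), and its other tested probe sets at 0.21 and -0.0015. Of transcription factors of muscle genes, 28 of 30 were measured and 21 tested, with none past the test and a median of 0.15. Tbx5, a heart factor, stood at 1.14 (0.475), Srf, serum response factor, at 0.67 (0.59), with opposite signs on its other 2 probe sets (-0.08 and -0.16), and Mrtfb, its cofactor, at -0.46 (0.70).

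Over the 6 lists, which hold 180 different genes besides the members, 162 were measured and 107 tested. For P28 against P14, 0 of 107 passed limma at an adjusted p under 0.05, against 0.0089% of all genes, and 11 had an unadjusted p under 0.05, of which 9 were higher and 2 lower. That is beside 7.64% of all 11240 genes. For P60 against P28, 0 of 107 passed, with 0% over all genes, and 4 had an unadjusted p under 0.05, beside 5.68% of all genes. For P60 against P14, 0 of 107 passed, against 0.489% of all genes, and 18 had an unadjusted p under 0.05, beside 16.2% of all genes. With array weights, which give noisy arrays less influence, limma called 9 and 20 related genes for P28 and for P60 against P14, and 1163 and 3621 of all probe sets.

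**Figure D2:**
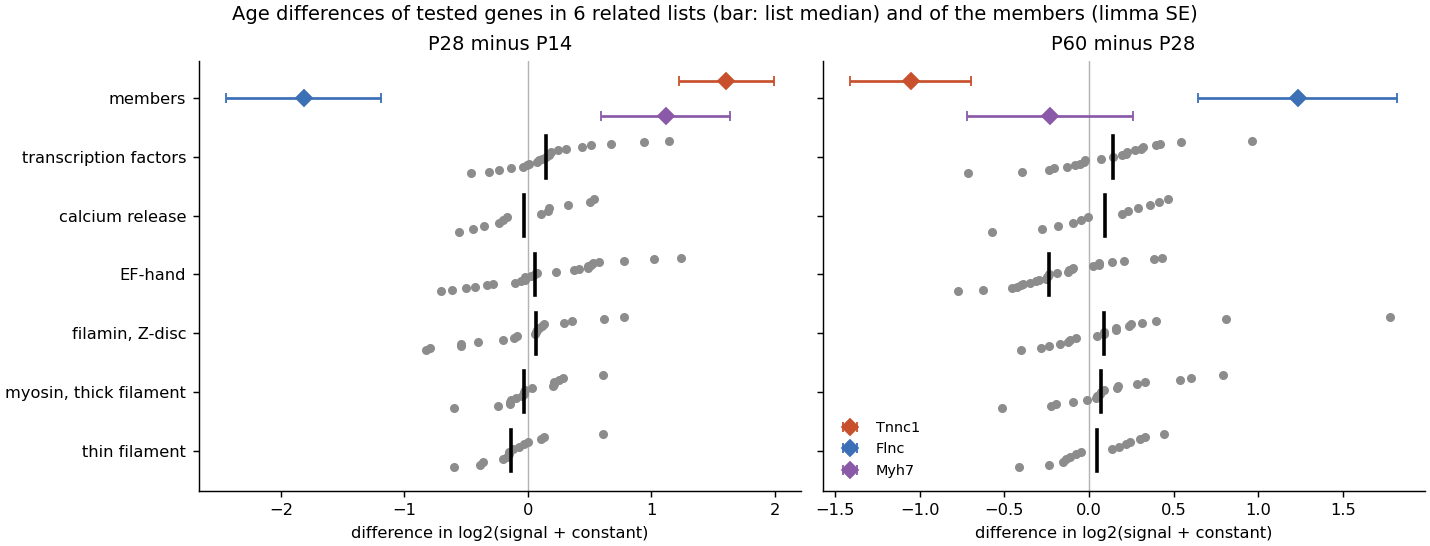
Difference in log2(signal + constant) between ages for each tested gene of the 6 related lists (grey points, black bar at the list median), with the 3 tested member probe sets as diamonds and their limma SE. List medians for P28 minus P14 lie between -0.13 and 0.15, and single list genes lie further out, such as Cabp1 at 1.24 and Fhl1 at -0.79. Tnnc1 stands at 1.61, Myh7 at 1.12 and Flnc at -1.81. The members were picked with their age patterns known, so nothing is read from their distance to the list medians.

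Markers of muscle tissue were examined because scraps of other tissue can enter a dissection. Of 25 skeletal muscle markers 15 had a mean above the Bacillus level. Their summed signal was 4142 to 4699 at P14, 4266 to 5160 at P28 and 4533 to 9697 at P60. The brightest was Ckm, muscle creatine kinase, at 5208 in P60 litter 2 and at most 921 in the other litters, followed by Acta1 and Casq1. This Ckm probe set is r-type and on chip C, where the P60 litter 2 array had the lowest mean correlation with the other arrays (0.858). The chip A probe sets of Ckm had means of 142, 170 and 188 and of 42.3, 28.0 and 30.4 at P14, P28 and P60. Another on chip C, also r-type, had 65.9, 54.4 and 400. Genes of fast fibres were divided. Myh2 and Tnni2 had means below 20 at each age, whereas Myh4 (172, 207 and 177), Atp2a1 (181, 240 and 320), Actn3 (162, 155 and 292), Myl1 (239, 273 and 295) and Mylpf (202, 181 and 208) had means above the Bacillus level at P14, P28 and P60. The probe set shown for Myh4 is r-type and that for Actn3 f-type. All other probe sets of the genes with means above that level had means below the level of their chip at every age. Those of Myh4 were 23.5, 24.9 and 37.9, and those of Actn3 47.0, 73.1 and 66.4. Tnnc1, read on chip A, was 307 in P60 litter 2, and the part of muscle tissue in its values was not tested.

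Of 16 heart muscle markers 9 had a mean above the Bacillus level, led by Ryr2, Actc1 and Myl4. Their sum was 2725 to 3645 at P14, 3221 to 3558 at P28 and 2958 to 4383 at P60, and these ranges overlapped. Actc1 was read on an f-type probe set, and its other probe set had means of 7.83, 11.2 and 7.52, below the Bacillus level. Myl2, the ventricular light chain, had means of 20.8, 20.9 and 18.3, and Myl3 of 6.91, 6.79 and 43.4, both below the Bacillus level, as was the atrial light chain Myl7 at 23.6, 29.5 and 34.5. Myl4, by contrast, lay above it on both of its probe sets. Of 18 smooth muscle and pericyte markers 11 had a mean above background, led by Actg2, Myh11 and Mylk, with sums of 4530 to 4839 at P14, 3920 to 4380 at P28 and 4556 to 6206 at P60. Actg2 too was read on an f-type probe set, and its other probe set, on chip B, had means of 44.8, 26.9 and 42.1, below the Bacillus level. The P28 sums lay below those of the other ages, but against P14 this rested on Rgs5, a pericyte gene, with means of 768, 402 and 494. Without Rgs5, chosen after its values were seen, the sums were 3677 to 4212 at P14 and 3530 to 3894 at P28, which overlapped. Of 10 tested genes 4 were higher at P28 than at P14, with a median log2 difference of -0.04.

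Other cell type markers also moved with age. Blood cell genes (3 measured) summed to 5272 to 23993 at P14, 24816 to 34303 at P28 and 17478 to 51144 at P60, and myelin genes (10 measured) to 5821 to 12462, 11449 to 18753 and 12685 to 17156. The 5272 for blood and the 12462 for myelin were both from P14 litter 1, with its high 3' to 5' ratio. P14 litters 2 and 3 had myelin sums of 5821 and 6675, below every P28 litter. Interneuron markers (11 measured) had sums of 26095 to 31410 at P14, 29906 to 37485 at P28 and 27956 to 33387 at P60, with medians in the same order as Tnnc1 and overlapping litters. Choroid plexus markers (7 measured) summed to 806 to 1124, 1238 to 1988 and 1458 to 1795, higher at P28 than at P14 without overlap. Just 1 of these 7 genes had means above the Bacillus level at every age. Folr1, on an r-type chip C probe set, had means of 235, 668.5 and 374 within these sums. Its other chip A probe sets had means of 36.79, 49.45 and 58.48 and of 57.2, 81.7 and 101.7. Those on chip C had 17.02, 16.65 and 18.65 and 61.4, 75.9 and 120. Each of these was highest at P60, and all means but the 101.7 lay below the Bacillus level of their chip. All 4 lists were higher at P28 than at P14 in the median, as was Tnnc1, and their part in the Tnnc1 difference was not tested. Of the other nonmuscle lists, microglia were higher too (4838 to 5067). Medians were lower at P28 for excitatory neuron (50646 to 45158), endothelial (7060 to 6384), meningeal (24346 to 17944) and astrocyte markers (20522 to 19685). The meningeal median was 22553 at P60. For blood and myelin the P28 medians were 30316 and 16204 and the P60 medians 29503 and 14859, with overlapping litters. In whole tissue, fewer cells of a type and less RNA per cell cannot be told apart.

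**Figure D3:**
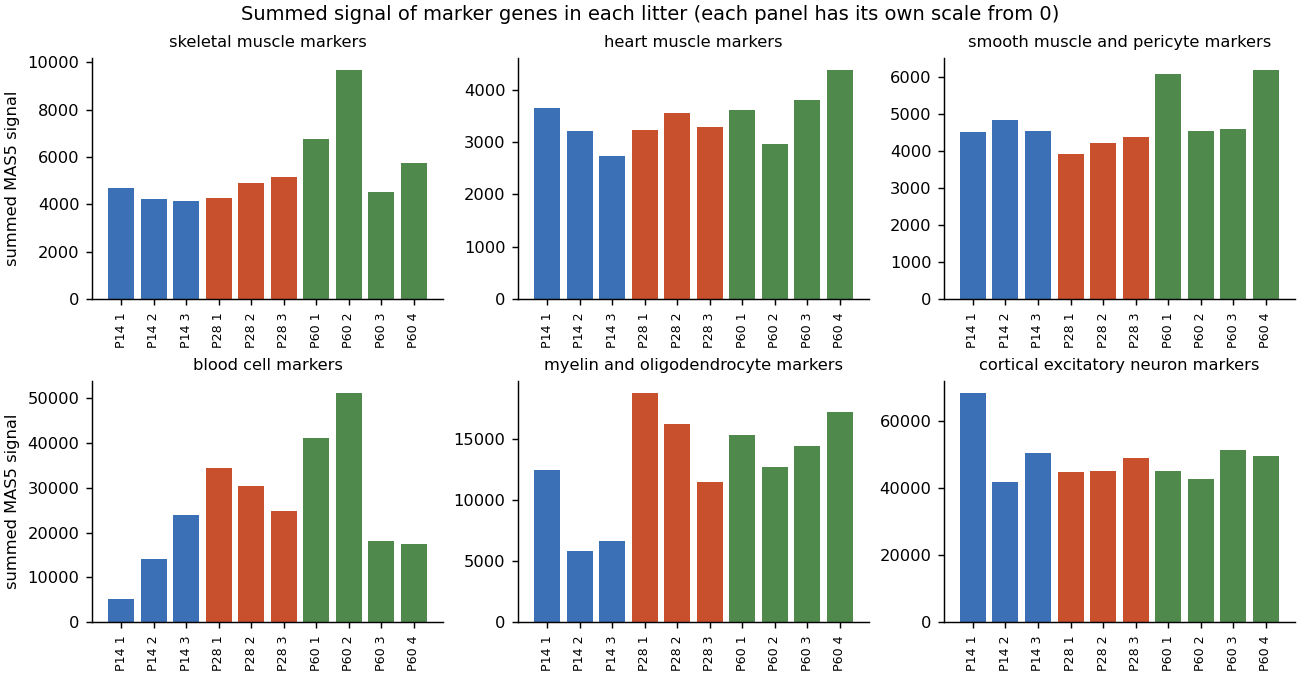
Summed MAS5 signal of marker genes in each litter for 6 cell type lists, with bars from 0 and coloured by age (P14 blue, P28 red, P60 green). Smooth muscle and pericyte sums at P28 are 3920 to 4380, and the highest skeletal sum, in P60 litter 2 (9697), includes 5208 from an r-type chip C probe set of Ckm.

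The genes whose log2 signal ran most like that of Tnnc1 over the 10 litters, among 10724 genes with a mean above background, were Kbtbd4, Dnajc25, Cgrrf1, Ddit3 and Trex2. Pearson's r was 0.92, 0.91, 0.91, 0.87 and 0.86. Dnajc25, which encodes a DNAJ-type cochaperone, had means of 782, 1475 and 1178, and Ddit3, the stress-response factor CHOP, 196, 367 and 313. After the age means were taken away, r was 0.92 for Kbtbd4, 0.85 for Dnajc25, 0.91 for Cgrrf1, 0.92 for Ddit3 and 0.71 for Trex2. P14 litter 2 and P60 litter 3 were low and P60 litter 1 high, for Tnnc1 as for Ddit3. The most opposite were Zmym2 (-0.87), Prkar2b, a regulatory subunit of protein kinase A (-0.86), and Prdm4 (-0.81). All points share the same litters, and the best of many genes are close by selection.

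**Figure D4:**
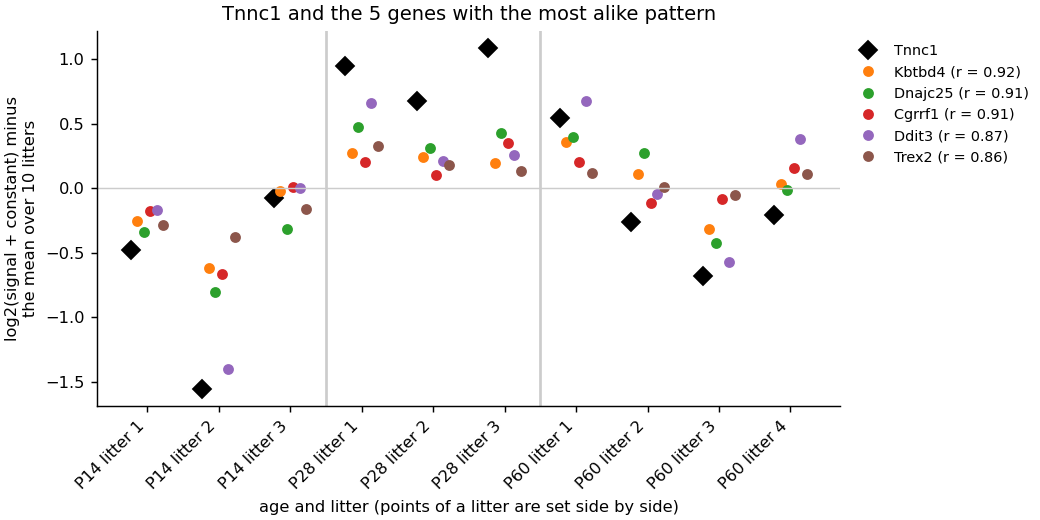
Log2(signal + constant) minus the mean over 10 litters, for Tnnc1 (black diamonds) and the 5 genes with the highest correlation to it (coloured circles, r in the key). All 6 genes are above their means in the P28 litters and below them in P14 litters 1 and 2, and Tnnc1 spans the widest range.

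For Flnc on chip C the closest patterns were those of Itsn2 (r = 0.89), Pde4dip (0.88), Erlin1 (0.87), Fem1al (0.87) and Edem1 (0.86). For Pde4dip Spearman's rho was 0.38. The most opposite was Hk3, a hexokinase gene, at -0.93, with means of 375, 753 and 465, then Spats1 (-0.91) and Brpf1 (-0.88). For the brighter Myh7 probe set they were Pagr1a (0.93), Ing1 (0.92), Lzts3 (0.92), Fnip1 (0.91) and Mpp5 (0.91), and the most opposite were Rala (-0.93), Rab10os (-0.92) and Knop1 (-0.91). None of the 15 closest genes of the 3 members was on the related lists.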

How the data were processed

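The authors deposited MAS5 signals (linear intensity values for every probe set), as named in the submitters' processing notes, with no software version stated there. All arrays had nearly equal trimmed means, and no other scaling was applied. Of 12488, 12477 and 11934 probe sets on chips A, B and C, 10833, 10581 and 7717 had 1 symbol after array controls were left out. Symbols were updated by gene ID (99.7% matched, RefSeq GRCm38.p6). Probe sets above the chip median (207, 252 and 183) on at least 3 of 10 arrays were tested, 20724 in all. Each chip was fitted with limma 3.58.1 in R 4.3.3 (age as the only term, variance trend), with Benjamini-Hochberg adjustment over all chips and a threshold of 0.05, after tests on simulated data. Where a gene had several tested probe sets, chip A came before B and C, then the brightest. The number of arrays limits the precision. Labels say that litters are separate, and p-values rest on that.

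The members, gene lists and rules were chosen with earlier results of these data known. Named genes are the members, list genes past the test, the 3 largest P28 against P14 differences of each related list among genes above background, the 5 most and 3 least alike genes, and the 3 brightest genes of each muscle marker list. Troponin, filamin and myosin relatives of the members, the markers set beside them and genes called in other fits were added after their values were seen. Alternatives were another constant (1 or the chip median), no filter or a strict filter, quantile normalisation, no variance trend, array weights, each litter left out, a restricted set without P14 litter 1, P60 litters 1 and 4 (chips A and B) and P60 litter 2 (chip C), and the litter number as a block. Upstream sequences came from RefSeq (GRCm38.p6), with the most upstream start of each gene. Other lists, for endothelial, meningeal, astrocyte and microglia markers, were summed per litter too. At P14, P28 and P60 their median sums were 7060, 6384 and 5839 (endothelial), 24346, 17944 and 22553 (meningeal), 20522, 19685 and 19464 (astrocyte), and 4838, 5067 and 4385 (microglia).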

Additional observations from a re-analysis of the deposited data

How the results depend on the processing

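Tnnc1 and Flnc kept the direction of all 3 age differences in all 18 alternatives, and Myh7 that of P28 and of P60 against P14. Myh7 for P60 against P28 kept it in 14 of 18. Part of these fits cannot change a difference, such as those with no filter, no variance trend or a litter of the third age left out. The genes were also chosen on these ages, so the counts are no independent support. Myh7 for P60 against P14 moved from 0.89 to 2.02 in the restricted set of arrays. With 1 litter left out, Tnnc1 ranged from 1.18 to 1.92 for P28 against P14, from -1.29 to -0.88 for P60 against P28 and from 0.13 to 0.87 for P60 against P14. Flnc ranged from -2.499 to -1.33, 0.76 to 1.52 and -1.27 to -0.10, and Myh7 from 0.87 to 1.55, -0.54 to 0.0015 and 0.59 to 1.32. The dimmer Flnc and Myh7 probe sets enter just the fit without a filter.

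For P28 against P14 limma called 1 probe set (Cadm1), 4 with the median as constant, 4 with the strict filter, 1163 with array weights, 208 in the restricted set, and 0 to 26 with 1 litter left out. For P60 against P28 it called 0, and 0 to 1 with 1 litter left out (Dctpp1, chosen after its values were seen). For P60 against P14 it called 82, 170 with the strict filter, 51 without the trend, 3621 with array weights, 441 in the restricted set, and 0 to 497 with 1 litter left out. Related genes called were 9 for P28 against P14 with array weights, and for P60 against P14 20 with array weights, 1 with the median as constant, with the strict filter and with quantile normalisation (Fhl1 each time), 2 in the restricted set (Calb2 and Jph3) and 0 to 3 with 1 litter left out (Fhl1, Hpcal1 and Jph3 without P14 litter 1, Fhl1 and Vsnl1 without P60 litter 3). The causes were not tested. Litter numbers did not pair the ages, with correlations of same-numbered litters from -0.08 to 0.16, and with the number as a block 0 probe sets were called in each comparison (82 and 1 without it for P60 and P28 against P14).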
